A study of Mus musculus with 6 samples.

Results

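The genes of MHC class II antigen presentation and Ciita, the coactivator that turns them on, were examined for H3K4me3 at their promoters in a T-lineage and a B-lineage mouse progenitor cell line. The set was fixed by gene name and holds 10 genes of the 21951 protein-coding genes of the annotation, namely H2-Aa, H2-Ab1, H2-Eb1, H2-DMa, H2-DMb1, H2-DMb2, H2-Oa, H2-Ob, Cd74 and Ciita. A gene was counted as marked in a line when a peak lay within 2500 bp of any of its annotated transcription start sites (TSSs). The T-lineage line, Scid.adh.2C2, is a clone of tumour cells from the thymus of CB17-Prkdc scid mice and resembles DN3 thymocytes, an early T cell stage. The B cell progenitor line, called the pre-B line here and given by its name in the plots, is a mouse pre-B line transformed with the Abelson virus. Both are transformed lines with no treatment given in the labels, so that each stands for 1 line and not for a population of primary cells. For each line, 2 ChIP libraries made with an antibody to H3K4me3 from Millipore and 1 input library were combined by the authors into 1 list of peaks, which holds 15513 peaks for Scid.adh.2C2 and 19604 for the pre-B line. Since neither read counts nor replicate values come with these lists, depth and replicate spread are unknown and no difference between the lines was tested.

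MHC class II molecules are pairs of an alpha and a beta chain that display peptides from endosomes to CD4+ T cells, and in the mouse they are made by B cells, dendritic cells, macrophages and thymic epithelium but not, as a rule, by T cells. The invariant chain, encoded by Cd74, fills the peptide groove until H2-DM exchanges its last fragment for a peptide, and H2-O modulates H2-DM. The promoters of these genes carry an S-X-Y module that is bound by RFX, CREB and NF-Y, and transcription starts when CIITA, which does not bind DNA itself, docks on these factors. H3K4me3 is a histone mark of active and poised promoters, with the strongest signal just downstream of the start.

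The promoter sequences are shown first because the S-X-Y module is the shared feature of the family. The RefSeq promoter table for GRCm38.p6 holds the 250 bases before and 50 bases after each start and had an entry for 7 of the 10 genes, while H2-Ab1, Cd74 and Ciita had no entry in it. The letters searched on both strands were an X core, ACNGATG, and a Y core, ATTGG, and a module was counted where the X core was followed by the Y core on the same strand with 10 to 35 bases between them. Each line below gives 48 bases, 5′ to 3′ on the strand of the gene, that end with the Y core nearest to the start. Capitals mark the Y core and, where the printed stretch holds it, the X core.
H2-Aa: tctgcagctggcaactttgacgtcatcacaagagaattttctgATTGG
H2-Eb1: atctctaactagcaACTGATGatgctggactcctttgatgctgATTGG
H2-DMb2: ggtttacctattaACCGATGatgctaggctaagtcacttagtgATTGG
H2-Oa: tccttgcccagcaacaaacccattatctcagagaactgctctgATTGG
H2-Ob: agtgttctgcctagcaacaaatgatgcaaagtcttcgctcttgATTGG
H2-Eb2: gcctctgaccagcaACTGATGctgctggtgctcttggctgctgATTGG
The stretches are chr17:34287867-34287914 on the minus strand for H2-Aa, and on the plus strand chr17:34305765-34305812 for H2-Eb1, chr17:34145116-34145163 for H2-DMb2, chr17:34092293-34092340 for H2-Oa, chr17:34238805-34238852 for H2-Ob and chr17:34325532-34325579 for H2-Eb2. H2-Eb2, a beta chain gene next to H2-Eb1 that is not among the 10, is shown because it carried the same module. The Y core ended 43 bases before the RefSeq start in H2-Aa, 54 in H2-Eb1, 85 in H2-DMb2, 38 in H2-Oa, 52 in H2-Ob and 95 in H2-Eb2. The stretch of H2-DMb1 is not printed because it lies in the 5′ exon of a GENCODE transcript. It matched that of H2-DMb2 at 43 of 48 positions and also held the module.

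The module was found in 3 of the 7 genes, H2-Eb1, H2-DMb1 and H2-DMb2, and in 64 of the 32851 promoters of the table (0.195%). The cores were 22 bases apart in H2-Eb1 and H2-Eb2 and 23 bases apart in H2-DMb1 and H2-DMb2. The Y core by itself was in all 7 genes, and in 37.4% of all promoters. For H2-DMa it was found only at the second of its 2 RefSeq starts, which is not a TSS of the GENCODE annotation. The X core by itself, anywhere in the 300 bases, was in 5 genes and in 9.85% of all promoters. In H2-Aa and H2-Oa it did not lie within the printed stretch. After the sequences had been seen, the shorter letters GNAAC were searched 24 to 30 bases before the Y core. These letters can overlap the first letters of the X core, as in H2-Eb1, so the patterns are not separate. They were there in 5 genes, H2-Aa, H2-Eb1, H2-DMb1, H2-Oa and H2-Ob, and in 1.19% of all promoters. With either pattern, 6 of the 7 genes had a match and H2-DMa had none. The share of all promoters with either pattern is not given here. Because GNAAC was chosen from these same sequences, the combined count is a description only. These matches describe letters and not binding.

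The class II promoters were poor in CpG. The ratio of observed to expected CpG was 0.158 in H2-Aa, 0 in H2-Eb1, 0.184 in H2-DMb1, 0.149 in H2-DMb2, 0.174 in H2-Oa and 0.166 in H2-Ob, and all 6 lay below the median of all promoters of the table (0.384). H2-DMa differed between its starts. The promoter it shares with Brd2 held 29 CpG in 300 bases with a ratio of 0.731, and the promoter at its second start held 0. For comparison, the median ratio was 0.786 for promoters of genes marked in both lines, 0.571 for genes marked only in the pre-B line and 0.274 for genes marked in neither.

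All 10 genes were marked in the pre-B line, where 48.2% of all protein-coding genes were. In Scid.adh.2C2, 3 of 10 were marked, H2-Ab1, H2-DMa and H2-Oa, against 45.5% of protein-coding genes. Hence 7 were marked in the pre-B line only, a state found in 5.96% of protein-coding genes, and these were Ciita, Cd74, H2-Aa, H2-Eb1, H2-DMb1, H2-DMb2 and H2-Ob. The 3 genes marked in both lines compare with 42.2% of protein-coding genes. None was marked in Scid.adh.2C2 only, a state of 3.28% of protein-coding genes, and none was unmarked in both lines, a state of 48.6%. Unmarked means here that the list held no peak in any window of the gene, at the thresholds of the authors. Whether H3K4me3 was truly absent from such a promoter was not tested. Sequence differences of the lines from the C57BL/6J reference at the class II genes, which can change how reads map, were also not analysed. The nearest Scid.adh.2C2 peak lay 22278 bp from a TSS of H2-Aa, 15606 bp from H2-Eb1, 14102 bp from H2-DMb1, 7072 bp from H2-DMb2, 14457 bp from H2-Ob, 41704 bp from Cd74 and 50939 bp from Ciita, so that none of the 7 was left out for lying just beyond the window.

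**Figure D1:**
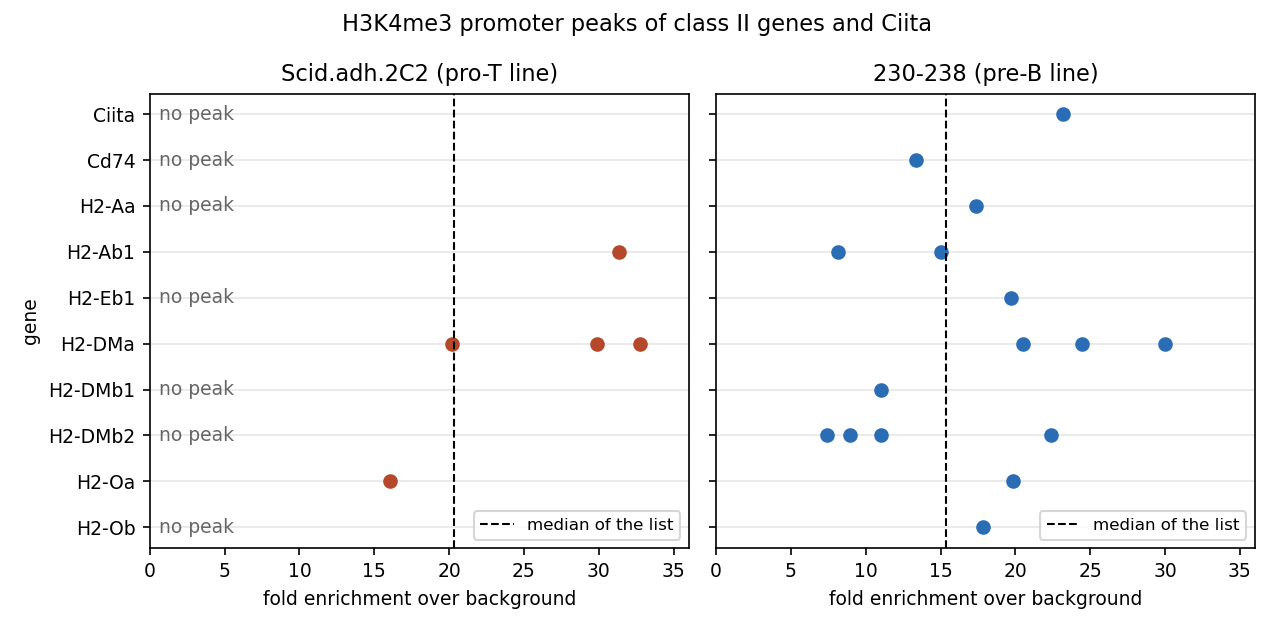
Fold enrichment of every promoter peak (x axis, ratio of ChIP signal to background at the summit) for each of the 10 genes (y axis), with Scid.adh.2C2 in the left panel and the pre-B line in the right. Each point is 1 peak and the dashed line is the median of all peaks of that list (20.3 and 15.4). The left panel has points for 3 genes and the right panel for all 10.

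Fold enrichment was read only within a list, because it depends on the depth and background of the libraries behind it. In the pre-B line the strongest peak of the 10 genes had a median fold of 18.8, with a range from 11.0 to 29.98, beside a median of 15.4 for the list and of 21.7 for the strongest peak of the 10570 marked protein-coding genes. By width most of the genes stood higher in the list than by fold, but H2-DMb2 and H2-Oa stood lower. The widest peak of each gene had a median of 3103 bp, from 1484 to 4865 bp, against 2351 bp for marked protein-coding genes, and 7 of the 10 were wider than that median while 3 of 10 were above the corresponding median of fold. The highest fold is that of a peak at H2-DMa which also holds TSSs of Brd2. Without such peaks the highest fold was 23.2, the medians were 18.8 and 3066.5 bp, and 6 genes were above the median of width and 2 above that of fold. Among the 1309 protein-coding genes marked in the pre-B line only, the median fold was 16.9 and the median width 1914 bp, and the 7 genes of the set had medians of 17.8 and 3067 bp.

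Ciita, the coactivator without which class II genes stay silent, had 1 peak in the pre-B line and 0 in Scid.adh.2C2. The peak, chr16:10487116-10491710, was 4595 bp wide with a fold of 23.2 and a −log10 q of 140. It ranked at percentile 80.8 of its list by fold and 96.8 by width, and its fold was above that of every other of the 7 genes marked in the pre-B line only. The 8 annotated Ciita transcripts start at 3 separate places. The most upstream TSSs (chr16:10480059-10480164, 3 transcripts) were unmarked in both lines, with the nearest pre-B peak 3989 bp away. The middle TSSs (chr16:10488178-10488279, 2 transcripts, 8014 bp further on) and the most downstream ones (chr16:10489746-10489783, 3 transcripts, another 1467 bp on) both lay inside the single pre-B peak. Its summit, in intron 1 of the transcripts from the downstream TSSs, was 140 bp past the last TSS and 1644 bp past the last of the middle TSSs. Mouse Ciita is known to use a promoter pI in dendritic cells, pIII in B cells and pIV after interferon-gamma, in this order along the gene. The annotation does not use these names, and since 1 peak covers both downstream groups the list cannot assign the mark to either.

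**Figure D2:**
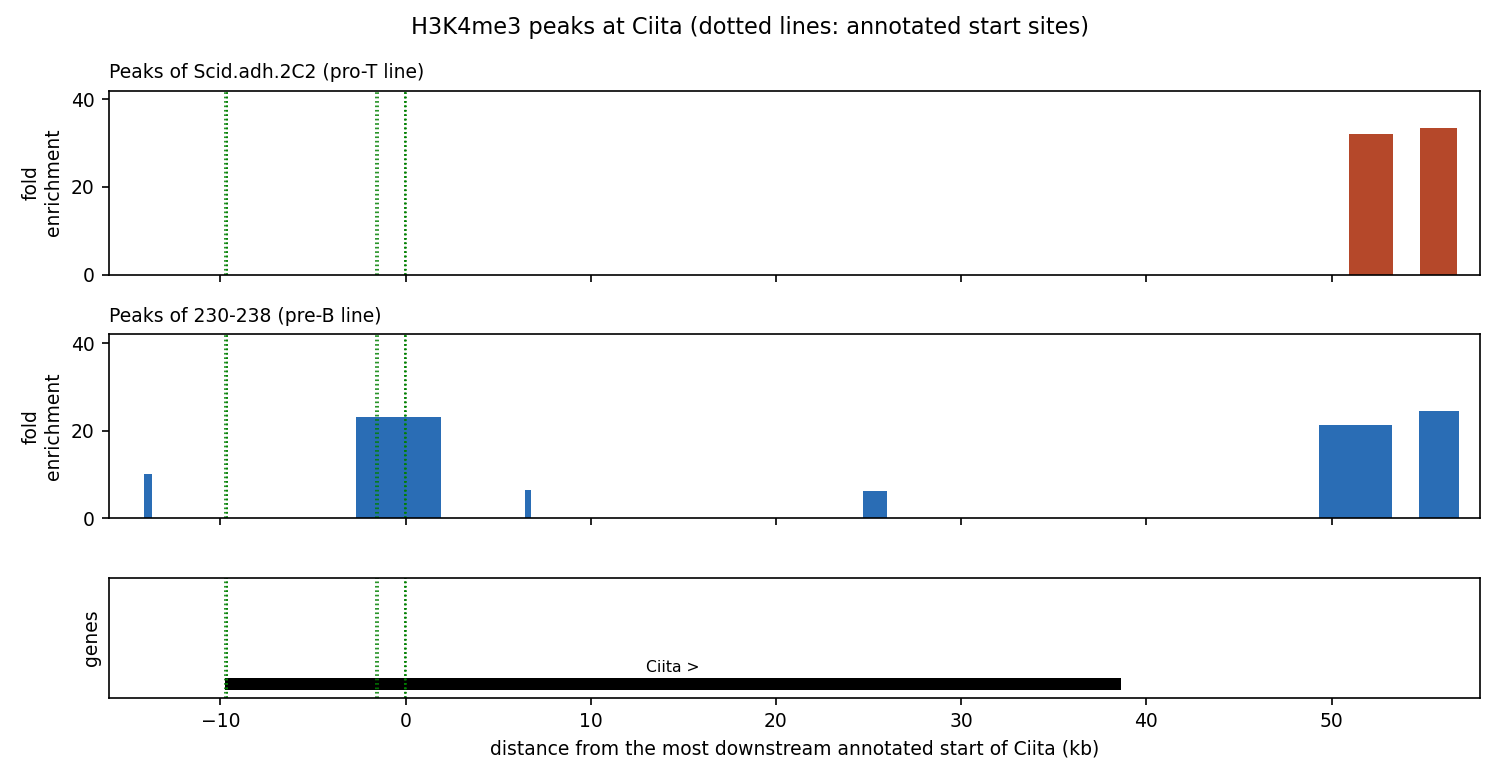
Peaks at Ciita, with the distance from its most downstream annotated start on the x axis (kb) and fold enrichment as bar height (y axis), in Scid.adh.2C2 (top) and the pre-B line (middle), above the gene body (bottom). Bar width is peak width and dotted lines are the annotated starts. The 23.2-fold peak of the pre-B line spans the middle and downstream starts, none of the starts is covered in Scid.adh.2C2, and both lines have peaks past the end of the gene.

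Between the neighbouring genes Tvp23a and Clec16a, a stretch of 97976 bp, Scid.adh.2C2 had 2 peaks and both were at the promoters of Dexi and Clec16a, with folds of 32.0 and 33.4. In the pre-B line there were 6 peaks, 2 at these same promoters with folds of 21.4 and 24.6, the Ciita promoter peak, and 3 outside every promoter window. These 3 were weaker and had no partner in Scid.adh.2C2. One lay 5′ of the gene at chr16:10475639-10476070 with a fold of 10.0, and the others lay in the Ciita gene body at chr16:10496217-10496560 with 6.40 and chr16:10514483-10515763 with 6.29. The last of these also overlapped the gene body of Dexi. Socs1, a suppressor of cytokine signalling encoded further along the same chromosome, was also marked in the pre-B line only, at 22.3. The protein-coding genes closest to Ciita in percentile of fold and width in the pre-B line, out of 1308 others marked in that line only, were Tmem132e (22.9-fold, 4684 bp), followed by Polr1a and Ptcd3, which share a peak of 23.4-fold and 4194 bp. H2-Eb1 was the closest gene of the set, at rank 151. This likeness rests on 1 list. For all of these genes, unmarked in Scid.adh.2C2 means only that its list held no peak in their windows.

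Cd74, the invariant chain, had a broad and low peak in the pre-B line and 0 peaks in Scid.adh.2C2. The peak, chr18:60803725-60808589, was 4865 bp wide, at percentile 97.5 of its list, but its fold of 13.3 was at percentile 41.8. It reached 131 bp upstream and 4733 bp downstream of the start, and 97.3% of it lay downstream. The summit was 2516 bp into the gene, in intron 1, farther downstream than in 99.8% of the 8783 protein-coding genes with a peak over their coding start. Between its neighbours Rps14 and Tcof1, 35208 bp apart, this was the only peak in the pre-B line and Scid.adh.2C2 had 0.

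The classical chains H2-Aa and H2-Ab1, the alpha and beta chains of I-A, and H2-Eb1, the beta chain of I-E, were all marked in the pre-B line. H2-Aa had a peak at chr17:34285243-34288309 (3067 bp, 17.4-fold, −log10 q of 101), with the summit 703 bp inside the gene in intron 1. H2-Eb1 had one at chr17:34304971-34308593 (3623 bp, 19.7-fold, −log10 q of 115), with the summit 45 bp past a coding TSS. Neither had a peak in Scid.adh.2C2. Both pre-B peaks lay mostly inside the gene, with 83.1% of the H2-Aa peak and 71.1% of the H2-Eb1 peak downstream of the start.

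H2-Ab1 was the classical chain with a peak in both lines. In the pre-B line the peak at its coding TSSs was chr17:34262722-34265860, 3139 bp wide with a fold of 15.0, at percentile 48.4 of the list. In Scid.adh.2C2 it was chr17:34262921-34265499, 2579 bp wide with a fold of 31.4, at percentile 84.5. By fold the peak therefore ranked high in the T-lineage list and close to the middle of the B-lineage list. Ranked by −log10 q the contrast was smaller, at percentile 59.6 for the Scid.adh.2C2 peak against 45.5 for the pre-B peak. The Scid.adh.2C2 peak lay wholly inside the other and filled 82.2% of it. The summits differed in place. In the pre-B line the summit was 122 bp past the start, in exon 1, and in Scid.adh.2C2 it was 1432 bp past the start, in intron 1, farther downstream than in 99.4% of protein-coding genes of that list, so that the summits were 1310 bp apart. A summit is a single position from combined replicates, and its error is unknown. A second, small peak of 429 bp and 8.13-fold lay near the most upstream TSS of H2-Ab1, that of a noncoding transcript, in the pre-B line only.

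**Figure D3:**
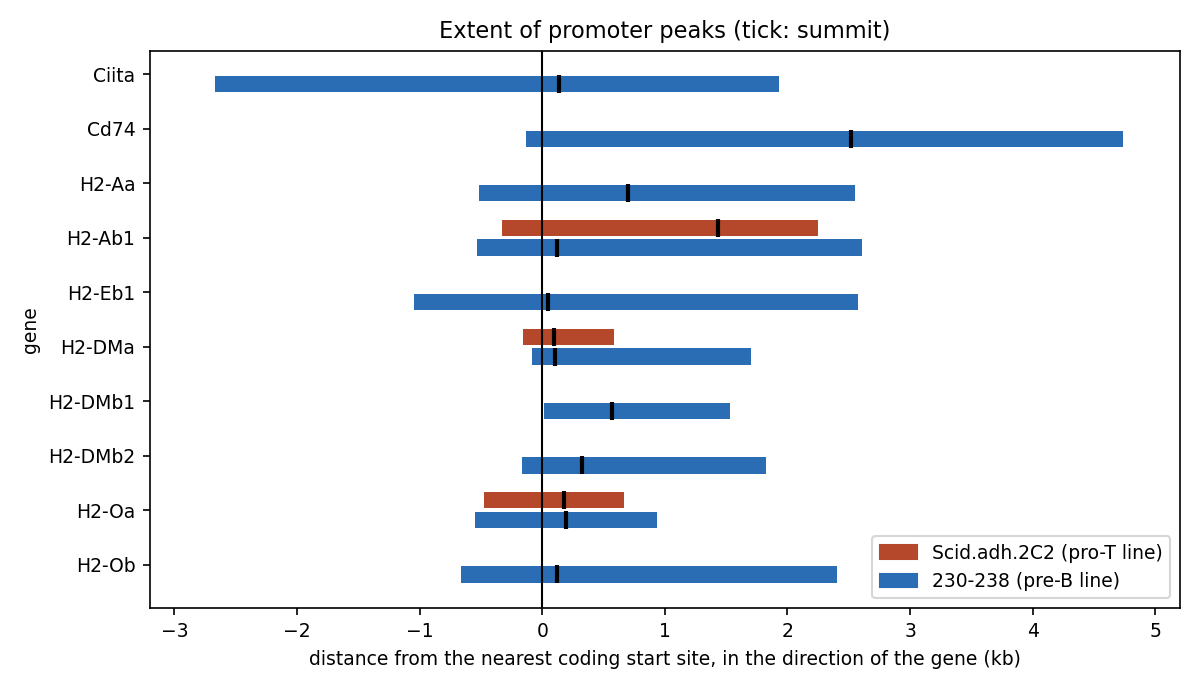
Extent of a promoter peak of each gene from its nearest coding start (x axis, kb, positive into the gene; genes on the y axis), in Scid.adh.2C2 (red) and the pre-B line (blue), with a black tick at the summit. The strongest peak is drawn, except for H2-DMa, where it is the peak that holds no start of another protein-coding gene. The peaks of Cd74, H2-Aa, H2-Ab1 and H2-Ob reach mainly into the gene, that of Ciita lies to both sides, and the H2-Ab1 summits of the lines are 1310 bp apart.

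The genes of peptide exchange fell into those marked in both lines, H2-DMa and H2-Oa, and those marked in the pre-B line only, H2-DMb1, H2-DMb2 and H2-Ob. H2-DMa, the alpha chain of H2-DM, has 8 annotated TSSs that are spread along the gene. The 5 most upstream ones (chr17:34119541-34122846) lie close to those of Brd2, a broadly expressed chromatin reader on the opposite strand. The strong peaks there were chr17:34119529-34124321 (4793 bp, 29.98-fold) and chr17:34116385-34119305 (2921 bp, 24.4-fold) in the pre-B line. In Scid.adh.2C2 they were chr17:34119536-34124354 (4819 bp, 29.9-fold) and chr17:34116378-34119323 (2946 bp, 32.7-fold). The wider peak of each line held TSSs of both genes and cannot be given to either. The narrower peak held a TSS of Brd2 and none of H2-DMa, and counted for H2-DMa only through the window. Position and width were nearly the same in the lines there. At the 3 downstream TSSs (chr17:34135628-34137028), where no other protein-coding gene starts, H2-DMa had a peak in both lines. The pre-B peak was chr17:34135574-34137357, 1784 bp wide, 20.5-fold and at percentile 70.3. The Scid.adh.2C2 peak was chr17:34135501-34136235, 735 bp wide, 20.2-fold and at percentile 49.4. They began within 73 bp of each other and their summits were 10 bp apart, and the pre-B peak ran 1122 bp further into the gene. H2-DMa thus counted as marked in both lines also without the peaks that hold TSSs of Brd2.

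H2-Oa, the alpha chain of H2-O, had 1 peak in each line with the summits 15 bp apart. It was chr17:34091789-34093272 in the pre-B line, 1484 bp wide, 19.9-fold and at percentile 67.7. In Scid.adh.2C2 it was chr17:34091863-34093009, 1147 bp wide, 16.1-fold and at percentile 39.0. Its partner H2-Ob, the beta chain of H2-O, was marked in the pre-B line only, by a peak at chr17:34238284-34241349 of 3066 bp and 17.8-fold.

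H2-DMb1 and H2-DMb2, which encode alternative beta chains of H2-DM, were marked in the pre-B line only. H2-DMb2 had 4 peaks, the strongest at chr17:34145104-34147096 (1993 bp, 22.4-fold, percentile 77.8) over its downstream coding TSSs. The others had folds of 11.1, 8.93 and 7.42, and the weakest of them had an IDR score of 621 where all other promoter peaks of the set had 1000. H2-DMb1 had 1 peak, chr17:34153088-34154600, of 1513 bp and 11.0-fold, the lowest strongest peak of the 10 genes in the pre-B line. It began 16 bp downstream of the GENCODE TSS but covered the RefSeq start used for the sequences. These genes are close paralogs, and the handling of reads that map to both is not given in the sources used here, so the split of signal between them is uncertain.

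Over the 9 genes whose strongest pre-B peak covered the nearest coding start, the median share of the peak that lay downstream was 78.4% (2403 bp), against 64.6% (1471 bp) over all 8783 protein-coding genes treated in the same way. H2-DMb1 is not among the 9 because its peak starts past the GENCODE TSS. The share was below that of all protein-coding genes in 3 of the 9. These were H2-Oa, with 62.8% (932 bp) downstream, Ciita, with 41.9% downstream and its second group of starts in the upstream portion, and H2-DMa, with 31.1% for the peak it shares with Brd2.

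The class II region, from the start of H2-Oa to the end of H2-Eb2 (chr17:34092340-34341412, 249073 bp), holds 8 of the 10 genes. Scid.adh.2C2 had 15 peaks there covering 9.77% of the region, and each overlapped a peak of the pre-B line. In the pre-B line there were 27 peaks covering 22.2%, of which 13 overlapped a Scid.adh.2C2 peak and 14 did not. The pre-B list is the longer one (19604 against 15513 peaks), and the share of all its peaks with such an overlap is not given here. These counts therefore describe the region and do not set it apart from the rest of the genome. The 6 other protein-coding genes of the region, Brd2, Psmb9, Tap1, Psmb8, Tap2 and H2-Eb2, were marked in both lines. Psmb8 and Psmb9 encode subunits of the immunoproteasome and Tap1 and Tap2 the peptide transporter, and all 4 serve class I presentation. Their folds were 39.0 at Psmb8, 29.7 at the promoter shared by Psmb9 and Tap1, and 21.1 at Tap2 in Scid.adh.2C2, and 24.8, 30.8 and 28.2 in the pre-B line. H2-Eb2 had a fold of 20.2 in Scid.adh.2C2 (percentile 49.6) and 11.9 in the pre-B line (percentile 35.4), although its promoter held the module shown above. Genes of the class I pathway were thus marked in both lines in between class II genes that were marked in the pre-B line only. H2-Ea-ps, named as a pseudogene in the reference annotation, and Btnl2 were unmarked in both lines. Whether either line carries the reference sequence at H2-Ea-ps was not analysed, so the lack of a peak there is hard to read. One peak outside every promoter window, chr17:34170693-34172349, between H2-DMb1 and Psmb9, had a fold of 20.1 in the pre-B line and overlapped 2 small peaks of 7.57-fold and 5.74-fold in Scid.adh.2C2.

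**Figure D4:**
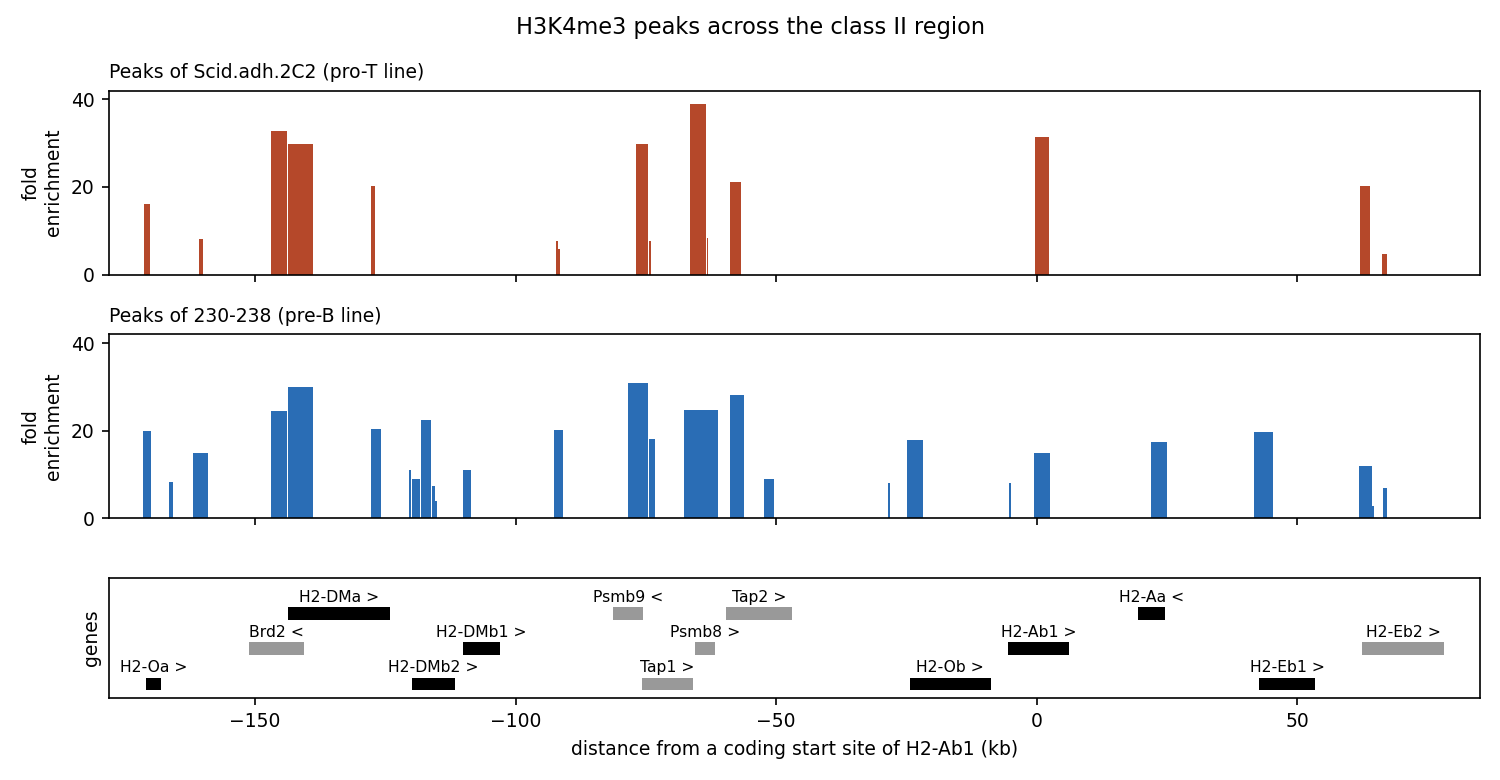
Peaks across the class II region, with the distance from a coding start of H2-Ab1 on the x axis (kb) and fold enrichment as bar height (y axis), in Scid.adh.2C2 (top) and the pre-B line (middle). Bar width is peak width. The lower track gives protein-coding genes, black for those of the set and grey for the 6 others, with arrowheads for the strand, and shows peaks in both lines at the grey genes and at H2-Oa, H2-DMa and H2-Ab1.

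The genes that act upstream of class II transcription were mostly marked in both lines. All 7 factors of the S-X-Y module (Rfx5, Rfxap, Rfxank, Nfya, Nfyb, Nfyc and Creb1) and all 7 coactivators that work with CIITA, among them Crebbp, Ep300 and Smarca4, were marked in both. Of 14 regulators of Ciita, 11 were marked in both lines and 3 in the pre-B line only, namely Irf8, a factor of B and myeloid cells, at 28.9-fold, Socs1 at 22.3 and Pax5, which sets B cell identity, at 21.4. Irf4 and Spi1, chosen after their values were seen, were marked in both lines with folds of 8.32 (percentile 16.3) and 7.09 (percentile 9.83) in Scid.adh.2C2, and 25.2 (percentile 87.6) and 21.9 (percentile 76.0) in the pre-B line. With peaks of at least 10-fold both lost their mark in Scid.adh.2C2, and 9 of the 14 regulators were marked there, against 44.1% of protein-coding genes. The regulators marked in both lines included the interferon-gamma receptor genes Ifngr1 and Ifngr2 and the kinase genes Jak1 and Jak2. The share of these lists marked in both lines stands beside 42.2% of all protein-coding genes.

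Among 9 genes of class II processing and turnover, 4 were marked in both lines, 1 in the pre-B line only, 1 in Scid.adh.2C2 only and 3 in neither. Over all protein-coding genes these states held 42.2%, 5.96%, 3.28% and 48.6%, so the count marked in both is close to the general share. The gene marked in the pre-B line only was Ctss (14.6-fold), the cathepsin that trims the invariant chain in B cells, and the one marked in Scid.adh.2C2 only was Ctsl (17.2-fold), the cathepsin that does so in thymic epithelium. Ifi30, March1 and Cd63 were unmarked in both. Of 6 genes of T cell partners and costimulation, Cd40 (15.8-fold) and Icosl (8.00-fold, and so not with peaks of at least 10-fold) were marked in the pre-B line only, 1 (Cd80) was marked in both but in neither with a window of 1000 bp, and Cd4, Lag3 and Cd86 were unmarked in both.

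**Figure D5:**
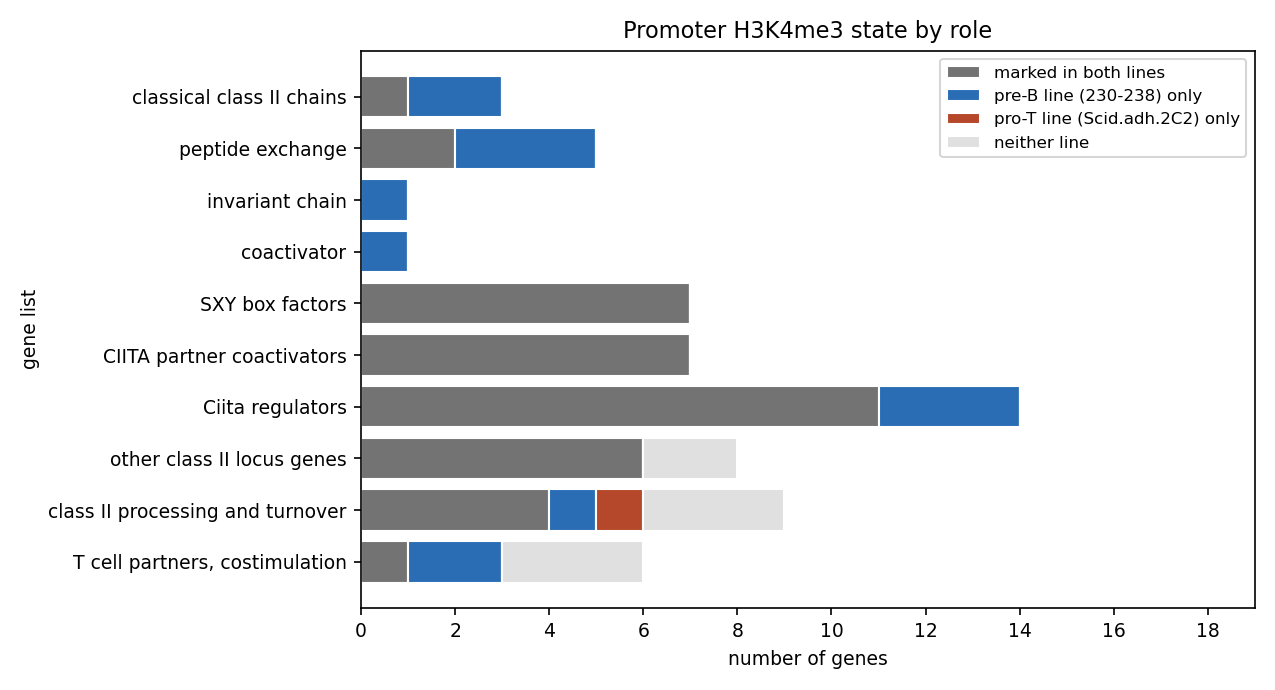
Number of genes (x axis) of each list (y axis) by promoter state, in dark grey for marked in both lines, blue for the pre-B line only, red for Scid.adh.2C2 only and light grey for neither. The upper 4 bars hold the 10 genes of the set, 7 of them blue, and the lists of module factors and CIITA partners are dark grey throughout.

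Lists of lineage markers were also counted. They were chosen with earlier results of these data known, so the counts describe the lines and cannot test their lineage. Of 10 T cell markers, all 10 had a peak in Scid.adh.2C2, while 3 (Cd3d, Lck and Tcf7) had one in the pre-B line. Of 10 B cell markers, 10 were marked in the pre-B line and 2 in Scid.adh.2C2 (Vpreb1 and Cd72). Among all protein-coding genes, the marked share was 45.5% for the T-lineage line and 48.2% for the pre-B line. Whether each listed gene is specific to its lineage was not tested. This holds for Rag1, counted as a T cell marker, which had a fold of 16.5 in Scid.adh.2C2 and no promoter peak in the other list. Other cells known to express class II left few marks: of 10 dendritic cell and macrophage markers, 0 were marked in Scid.adh.2C2 and 1, Clec9a at 7.06-fold, in the pre-B line, and of 5 thymic epithelium markers none was marked in either line. Itgax, Csf1r and Adgre1 were unmarked in both. Differences of the lines from the C57BL/6J reference sequence at these loci, which can change how reads map, were not analysed here.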

How the data were processed

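H3K4me3 ChIP-seq was carried out by the authors in Scid.adh.2C2 and in the Abelson-transformed pre-B line, with 2 ChIP libraries and 1 input per line. Reads were trimmed with Trim Galore (0.6.7), mapped to mm10 (GRCm38) with Bowtie2 (2.4.4), and peaks were called with MACS2 (2.2.7.1) in narrow mode at q 0.05 and filtered by the irreproducible discovery rate (IDR) at 0.05, as the paper's methods and the submitters' processing notes give it. The deposited lists hold 1 combined peak set per line with an IDR score (at most 1000), the fold enrichment ratio over background, −log10 p and −log10 q, and a summit, which the authors computed and which were used without change. Such a list cannot give replicate error, and absence of a peak depends on depth, which is unknown.

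TSSs were taken from GENCODE M21 on GRCm38, and a peak was assigned to a gene when it overlapped the 2500 bp either side of any of its TSSs by at least 1 bp. Percentiles of fold, width and −log10 q were taken within a list. Counts of genes are given beside the percentage of 21951 protein-coding genes in the same state, with no test. Peaks were related to the protein-coding TSS nearest to the summit. Promoter sequences came from RefSeq (GRCm38.p6). The likeness to Ciita was the distance in percentiles of highest fold and widest peak. Genes named outside the set were all protein-coding genes of the class II region, those marked in 1 line only or in neither in each pathway list, up to 4 a list, the 3 genes most like Ciita, and others as stated. The genes of the set, the pathway lists and the markers were chosen with earlier results of these data known. Gene assignment was tested on simulated peaks. The scripts ran under Python 3.11.15 with pandas 2.3.3, numpy 2.4.6 and, for plots, matplotlib 3.10.9. Alternatives were other windows (1000 and 5000 bp), stricter peaks, equal list lengths, summits in place of overlap, other choices of TSS, and other rankings. Input reads were used by the authors in peak calling and not otherwise.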

Additional observations from a re-analysis of the deposited data

How the results depend on the processing

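No paired analysis was possible because the peak list used here for each line combines its replicates, and leaving out a replicate was not possible for the same reason. No gene of the set changed its state with windows of 1000 or 5000 bp, peaks of at least 10-fold, peaks with an IDR score of 1000, lists of equal length, the summit in the window, or, chosen after seeing the data, protein-coding TSSs only or peaks without the TSS of another protein-coding gene. When each gene was reduced to its most upstream TSS, H2-Ab1 was marked in the pre-B line only and Ciita in neither line, so that the number of genes marked in neither was 1, because that TSS is not the one under the peak. Of the promoters searched, 7 genes matched the Y core alone, 5 the X core alone and 5 GNAAC before the Y core (added after seeing the data), against 3 for the module. By rank, Cd74 moved from percentile 41.8 by fold to 64.9 by −log10 q and 97.5 by width. By width, H2-Aa moved from 57.6 to 86.8, H2-DMb1 from 31.4 to 47.3 and H2-Ab1 in the pre-B line from 48.4 to 87.7. The H2-Ab1 peak of Scid.adh.2C2 went from 84.5 by fold to 59.6 by −log10 q. Among promoter peaks of protein-coding genes only, percentiles by fold were lower, at 23.0 for Cd74, 29.6 for H2-Ab1 and 15.3 for H2-DMb1 in the pre-B line and 21.7 for H2-Oa (from 39.0) in Scid.adh.2C2. Joining peaks within 1000 bp widened H2-DMa to 7937 bp in the pre-B line and 7977 bp in Scid.adh.2C2, and H2-DMb2 to 5367 bp. Without peaks that hold TSSs of Brd2, a choice made after seeing the data, the widest H2-DMa peak was 1784 bp in the pre-B line and 735 bp in Scid.adh.2C2. The highest H2-DMa fold in Scid.adh.2C2 was then 20.2 in place of 32.7, a peak that holds no TSS of H2-DMa.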
